A study of Mus musculus with 13 samples.

Results

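BTG4 and the CCR4-NOT deadenylase were described in mouse oocytes and eggs through 10 genes. These were the subunit genes Cnot1, Cnot2, Cnot3, Cnot4, Cnot6, Cnot6l, Cnot7 and Cnot8 and the adaptor genes Btg4 and Zfp36l2. They were picked by name, by a rule that uses no measured value, and all 10 were found among the 54232 genes of the count table. RNA was sequenced from 13 pools of 25 cells each. The pools formed 4 groups: GV oocyte, WT (n = 3), GV oocyte, Sirena1 Null (n = 3), MII egg, WT (n = 3), and MII egg, Sirena1 Null (n = 4). GV oocytes are fully grown and arrested before meiosis resumes, with an intact germinal vesicle, and MII eggs have matured to the second meiotic metaphase. The mice were superovulated, GV oocytes were held in M2 medium containing 0.2 mM IBMX (an inhibitor that blocks meiotic resumption), and eggs were taken 12 to 14 h after hCG. Null animals carried a Cas9-made deletion of the promoter of Sirena1, a long noncoding RNA. The strain label reads C57BL6/J for every pool, while the protocols name C57Bl6/J or C57BL/6NCrl donors and a Null line bred with C57BL/6NCrl, so a substrain effect and the deletion cannot be told apart. Nothing in the labels says whether pools of a group came from separate animals, so p-values measure the spread between these pools, which may be partly technical.

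CCR4-NOT is the main complex that shortens poly(A) tails in the cytoplasm, the step that starts the decay of most mRNAs. CNOT1 is its scaffold, CNOT7 or CNOT8 and CNOT6 or CNOT6L are its alternative catalytic subunits, and CNOT2 and CNOT3 form the NOT module. Adaptors bring it to mRNA. In mouse oocytes transcription is silent at the end of growth, maturation is accompanied by broad deadenylation and decay of maternal mRNA, and BTG4 is the adaptor known to license this decay by binding the catalytic subunits CNOT7 and CNOT8. The question here was how the transcripts of this machinery behave during maturation and whether they differ without Sirena1.

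Total counts per library ran from 30867614 to 41285507, and the 10 genes had between 223 and 51567 counts in each library. Levels below are CPM, counts scaled to library size with TMM factors. These are relative to the RNA of the same library, so a fall of all other RNA and a rise of 1 gene cannot be told apart, and in pooled cells neither can fewer cells of a type and less RNA per cell. Sirena1 ran from 2912 to 3092 CPM in GV WT, from 23.3 to 26.4 in GV Null, from 4271 to 4693 in MII WT and from 35.9 to 45.0 in MII Null libraries. The 14 oocyte markers were above 0 in every library. Of 22 cumulus and granulosa cell markers, 3 (Cyp19a1, Nr5a2 and Serpine2, set apart after their values were seen) were at 20 CPM or more in all libraries. The other 19 summed to 27.3 to 58.4 CPM in GV WT, to 27.8, 569 and 177 CPM in GV Null replicates 1 to 3, to 19.6 CPM or less in MII WT and to 15.8 to 31.9 CPM in MII Null. GV Null replicates 2 and 3 thus stood apart. MII Null replicate 4 was the lowest MII library on the leading principal component (75.8% of variance), at 26.5, where the other MII libraries lay between 38.5 and 50.8. The number of the 22 markers at 0 counts was 0 to 2 in GV libraries, 2 in MII Null replicate 4 and 7 to 10 in the other MII libraries.

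RefSeq promoter windows on GRCm38.p6 (250 bases before to 50 after an annotated start) were matched for 7 of the 10 genes. Windows of Btg4 and Cnot3 are shown because these genes rose 1.65-fold each during maturation in WT pools while their windows differ in base composition. Whether the window sequence has any part in the rise was not tested. Both are on the plus strand, at chr9:51115751-51116050 for Btg4, where the start lies inside the span of the gene, and at chr7:3645019-3645318 for Cnot3, and capitals mark each CpG.
Btg4: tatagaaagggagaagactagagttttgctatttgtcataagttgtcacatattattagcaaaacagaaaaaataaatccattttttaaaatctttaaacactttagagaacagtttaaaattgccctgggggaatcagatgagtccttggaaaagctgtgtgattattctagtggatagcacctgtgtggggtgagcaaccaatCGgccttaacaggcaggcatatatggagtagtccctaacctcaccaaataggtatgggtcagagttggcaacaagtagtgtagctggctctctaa
Cnot3: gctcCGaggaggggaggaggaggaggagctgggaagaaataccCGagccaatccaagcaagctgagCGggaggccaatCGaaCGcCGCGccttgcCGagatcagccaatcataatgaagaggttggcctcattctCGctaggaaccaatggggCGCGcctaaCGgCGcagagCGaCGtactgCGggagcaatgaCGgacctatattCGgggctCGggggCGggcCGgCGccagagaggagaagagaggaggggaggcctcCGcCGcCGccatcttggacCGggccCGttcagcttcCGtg
The Btg4 window is 39.0% GC and holds 1 CpG, and 14.1% of all 32841 windows of this length hold that many or fewer. The Cnot3 window is 64.3% GC and holds 28 CpG, and 14.2% of windows hold that many or more. The median window holds 7. The E-box letters CANNTG, which read the same on both strands and were searched without another motif, occur 2 times in the Btg4 window and 0 times in the Cnot3 window, and 72.3% of all windows hold at least 1.

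In WT pools 7 of the 10 genes were higher in MII eggs than in GV oocytes past an adjusted p of 0.05 (edgeR quasi-likelihood test, Benjamini-Hochberg over 20143 genes), and none was lower. Btg4 and Cnot3 rose 1.65-fold, Cnot8 1.55-fold, Cnot7 1.49-fold, Cnot4 1.47-fold, Cnot6l 1.31-fold and Cnot1 1.16-fold. Among all tested genes 42.7% passed, 19.9% as higher and 22.8% as lower. The median log2 fold change was 0.47 over the 10 genes and 0.01 over all tested genes. In Null pools 7 of 10 were also higher and none lower, against 49.0% of all genes called, 22.1% higher and 26.9% lower. The medians there were 0.48 and -0.05. Libraries of the 2 stages did not overlap for 8 of the 10 genes in WT, where 58.3% of all genes did not overlap, and for 7 in Null, where 46.4% did not.

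**Figure D1:**
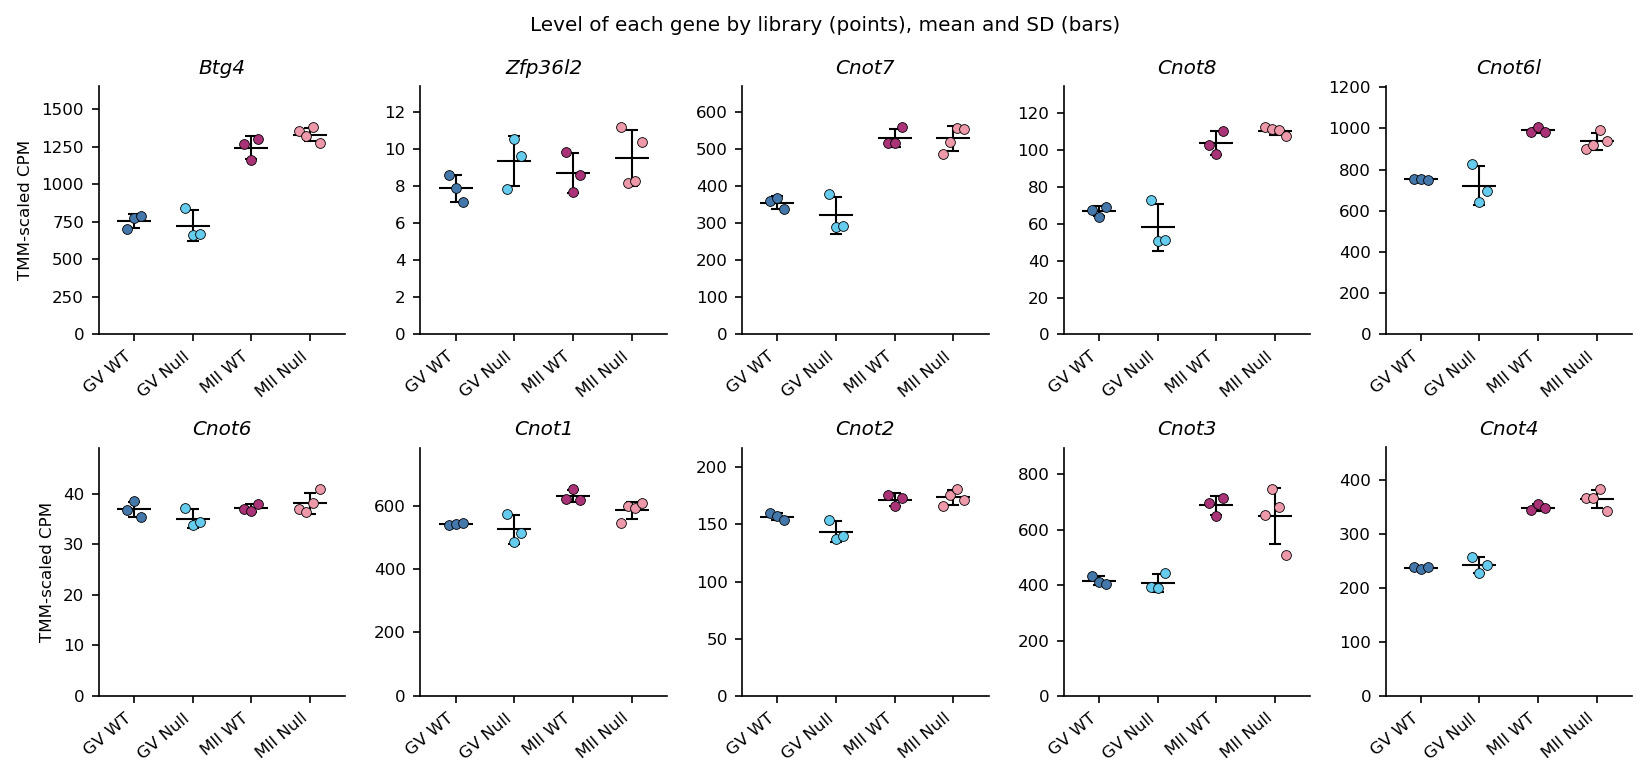
TMM-scaled CPM (vertical axes, each from 0) of the 10 genes in the 4 groups; each point is 1 library, and bars give the mean and SD (n = 3, 3, 3 and 4). Btg4 libraries sit between 663 and 844 CPM in GV oocytes and between 1159 and 1380 CPM in MII eggs, while the Cnot6 libraries of all groups lie between 33.7 and 40.9 CPM.

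Btg4 (ENSMUSG00000032056, chr9:51102147-51119924 in GRCm38.p6) encodes the adaptor itself. Its WT libraries stood at 704, 776 and 790 CPM in GV oocytes (757 ± 46.0, SD, n = 3) and at 1272, 1159 and 1306 CPM in MII eggs (1246 ± 76.6, n = 3). Its Null libraries stood at 844, 663 and 669 CPM in GV oocytes (725 ± 103, n = 3) and at 1353, 1321, 1380 and 1275 CPM in MII eggs (1332 ± 44.8, n = 4). Every MII library was above every GV library, whatever the genotype. The rise was 1.65-fold in WT (95% interval 1.45 to 1.87, log2 0.72, SE 0.09, edgeR adjusted p = 3.25e-06). It was 1.84-fold in Null (1.62 to 2.08, log2 0.88, SE 0.08, edgeR adjusted p = 1.30e-07). In rising order the group means ran GV Null, GV WT, MII WT, MII Null, and the libraries overlapped within each stage.

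Zfp36l2 (ENSMUSG00000045817, chr17:84183924-84187947) encodes a zinc-finger protein that binds AU-rich elements and recruits CCR4-NOT to them. Its WT libraries held 8.60, 7.90 and 7.13 CPM in GV oocytes (7.88 ± 0.73, n = 3) and 9.84, 7.69 and 8.60 CPM in MII eggs (8.71 ± 1.08, n = 3). Its Null libraries held 7.86, 10.5 and 9.62 CPM in GV oocytes (9.33 ± 1.35, n = 3) and 11.2, 8.16, 8.26 and 10.4 CPM in MII eggs (9.49 ± 1.51, n = 4). All 4 groups overlapped. The log2 difference between MII and GV was 0.14 in WT (95% interval -0.19 to 0.48, edgeR adjusted p = 0.496) and 0.03 in Null (-0.28 to 0.34, adjusted p = 0.898). Changes within these bounds are not excluded.

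The catalytic subunits of the CAF1 type, exonucleases of which 1 copy sits in each complex, both rose. Cnot7 (ENSMUSG00000031601, chr8:40492538-40515847) stood at 360.3, 368 and 337 CPM in GV WT (355 ± 16.6, n = 3) and at 516, 517 and 558 CPM in MII WT (530.0 ± 24.0, n = 3). It stood at 379, 291 and 292 CPM in GV Null (321 ± 50.4, n = 3) and at 485, 517, 555 and 555 CPM in MII Null (528 ± 33.7, n = 4). No MII library fell into the GV range. The rise was 1.49-fold in WT (1.30 to 1.71, log2 0.58, SE 0.09, edgeR adjusted p = 6.66e-05) and 1.65-fold in Null (1.45 to 1.87, log2 0.72, SE 0.09, adjusted p = 2.62e-06).

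Cnot8 (ENSMUSG00000020515, chr11:58092794-58118597), the paralog of Cnot7, stood at 67.8, 63.9 and 69.2 CPM in GV WT (67.0 ± 2.72, n = 3) and at 103, 97.8 and 111 CPM in MII WT (104 ± 6.47, n = 3). It stood at 73.0, 50.5 and 51.3 CPM in GV Null (58.3 ± 12.7, n = 3) and at 112, 111, 111 and 108 CPM in MII Null (111 ± 2.13, n = 4). Here too the stages were separate. The rise was 1.55-fold in WT (1.32 to 1.82, log2 0.63, SE 0.11, edgeR adjusted p = 0.000133) and 1.90-fold in Null (1.63 to 2.21, log2 0.92, SE 0.10, adjusted p = 9.38e-07).

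The catalytic subunits of the CCR4 type differed from each other. Cnot6l (ENSMUSG00000034724, chr5:96070333-96164198), known for its part in maternal mRNA decay, stood at 752, 754 and 752 CPM in GV WT (753 ± 1.52, n = 3) and at 984, 1004 and 980.3 CPM in MII WT (989.7 ± 13.0, n = 3). It stood at 825, 643 and 695 CPM in GV Null (721 ± 94.1, n = 3) and at 899, 917, 992 and 939 CPM in MII Null (937 ± 40.3, n = 4). The MII libraries were again all higher. The rise was 1.31-fold in WT (1.17 to 1.48, log2 0.39, SE 0.08, edgeR adjusted p = 0.000601) and 1.30-fold in Null (1.16 to 1.45, log2 0.38, SE 0.08, adjusted p = 0.000435). Without GV Null replicates 2 and 3, the libraries high in cumulus markers, the Null value was 0.18 on the log2 scale and did not pass (edgeR adjusted p = 0.0989).

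Cnot6 (ENSMUSG00000020362, chr11:49671497-49713401), the paralog of Cnot6l, stood at 36.7, 38.5 and 35.5 CPM in GV WT (36.9 ± 1.51, n = 3) and at 37.0, 36.5 and 38.0 CPM in MII WT (37.2 ± 0.78, n = 3). It stood at 37.1, 33.7 and 34.4 CPM in GV Null (35.1 ± 1.80, n = 3) and at 37.0, 36.3, 38.1 and 40.9 CPM in MII Null (38.1 ± 2.03, n = 4). All 4 groups overlapped. The log2 difference between stages was 0.01 in WT (95% interval -0.16 to 0.19, edgeR adjusted p = 0.927) and 0.12 in Null (-0.04 to 0.28, adjusted p = 0.220).

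A ratio of 2 paralogs within a library does not depend on how libraries are scaled, although its absolute size reflects transcript length as well as number. The Cnot6l to Cnot6 count ratio was 20.5, 19.6 and 21.2 in GV WT and 26.6, 27.5 and 25.8 in MII WT. It was 22.2, 19.1 and 20.2 in GV Null and 24.3, 25.2, 26.1 and 22.9 in MII Null. Every egg library was thus above every oocyte library. The mean log2 difference between stages was 0.32, at 0.38 in WT and 0.27 in Null. An exact two-sided permutation test of stage within genotype gave p = 0.00143 (700 arrangements, the smallest p they can give; 0.00571 after Benjamini-Hochberg adjustment over 4 ratio tests). The Cnot7 to Cnot8 count ratio averaged 5.31 ± 0.45 in GV WT (n = 3), 5.55 ± 0.31 in GV Null (n = 3), 5.11 ± 0.15 in MII WT (n = 3) and 4.78 ± 0.38 in MII Null (n = 4). Its log2 difference between stages was -0.14 (exact permutation p = 0.0443, adjusted p = 0.0886), which did not hold after adjustment. Leaving out 1 library at a time lost even the unadjusted call for 9 of 13 libraries, with p from 0.00571 to 0.0971. Null against WT gave a log2 difference of -0.06 for Cnot6l to Cnot6 (exact permutation p = 0.251, adjusted p = 0.335; -0.09 and unadjusted p = 0.04 without GV Null replicate 1). For Cnot7 to Cnot8 it was -0.02 (exact permutation p = 0.751, adjusted p = 0.751).

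Cnot1 (ENSMUSG00000036550, chr8:95718931-95808113), the scaffold on which the other subunits assemble, stood at 538, 543 and 546 CPM in GV WT (542 ± 3.86, n = 3) and at 622, 653 and 617 CPM in MII WT (631 ± 19.4, n = 3). It stood at 575, 487 and 513 CPM in GV Null (525 ± 45.1, n = 3) and at 547, 599, 591 and 607 CPM in MII Null (586 ± 27.0, n = 4). The stages were separate in WT and overlapped in Null. The WT rise was 1.16-fold (1.05 to 1.29, log2 0.22, SE 0.07, edgeR adjusted p = 0.0203), and the Null value was 1.12-fold (1.01 to 1.23, log2 0.16, SE 0.07, adjusted p = 0.0588). The WT call was lost under 11 of 25 alternative settings. Among these were the removal of any 1 GV WT library, of MII WT replicate 2, or of MII Null replicate 2, 3 or 4, with Cnot1 log2 values from 0.17 to 0.22. Without GV Null replicate 1 the Null value was 0.24 and passed (edgeR adjusted p = 0.00438).

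Cnot2 (ENSMUSG00000020166, chr10:116485160-116581900), a subunit of the NOT module, stood at 159.8, 157 and 153 CPM in GV WT (157 ± 3.14, n = 3) and at 176, 166 and 173 CPM in MII WT (172 ± 5.32, n = 3). It stood at 154, 137 and 140.2 CPM in GV Null (144 ± 8.86, n = 3) and at 166, 175, 181 and 172 CPM in MII Null (174 ± 6.28, n = 4). MII libraries lay above GV libraries in both genotypes. The value was 1.10-fold in WT (0.992 to 1.21, log2 0.13, SE 0.07, edgeR adjusted p = 0.131) and 1.21-fold in Null (1.10 to 1.33, log2 0.27, SE 0.06, adjusted p = 0.00179). Only the Null value passed, and without GV Null replicates 2 and 3 it was 0.18 on the log2 scale with an edgeR adjusted p of 0.154. The difference between the genotypes was itself not called (log2 0.14, SE 0.09, adjusted p = 0.999), nor was that of Cnot1 (log2 -0.06, SE 0.10, adjusted p = 0.999).

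Cnot3 (ENSMUSG00000035632, chr7:3645247-3661109), the partner of Cnot2 in the NOT module, rose in both genotypes. It stood at 433, 411 and 404 CPM in GV WT (416 ± 15.4, n = 3) and at 698, 651 and 715 CPM in MII WT (688 ± 33.4, n = 3). It stood at 392, 389 and 446 CPM in GV Null (409 ± 32.1, n = 3) and at 655, 748, 684 and 509 CPM in MII Null (649 ± 101, n = 4). The lowest of the MII values was that of Null replicate 4, also the lowest MII library on the leading principal component, and it was still above all GV libraries. The rise was 1.65-fold in WT (1.42 to 1.93, log2 0.73, SE 0.11, edgeR adjusted p = 2.28e-05) and 1.59-fold in Null (1.37 to 1.83, log2 0.67, SE 0.10, adjusted p = 2.54e-05).

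Cnot4 (ENSMUSG00000038784, chr6:35022065-35133754) encodes a ubiquitin ligase that is counted with the complex and associates with it loosely in mammals. It stood at 239, 234 and 239 CPM in GV WT (237 ± 2.89, n = 3) and at 344, 355 and 348 CPM in MII WT (349 ± 5.76, n = 3). It stood at 257, 227 and 242 CPM in GV Null (242 ± 15.2, n = 3) and at 366, 367, 383 and 342 CPM in MII Null (365 ± 17.2, n = 4). The stages did not overlap. The rise was 1.47-fold in WT (1.33 to 1.62, SE 0.07 on the log2 scale, edgeR adjusted p = 2.96e-06) and 1.51-fold in Null (1.37 to 1.65, log2 0.59, SE 0.06, adjusted p = 5.86e-07).

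**Figure D2:**
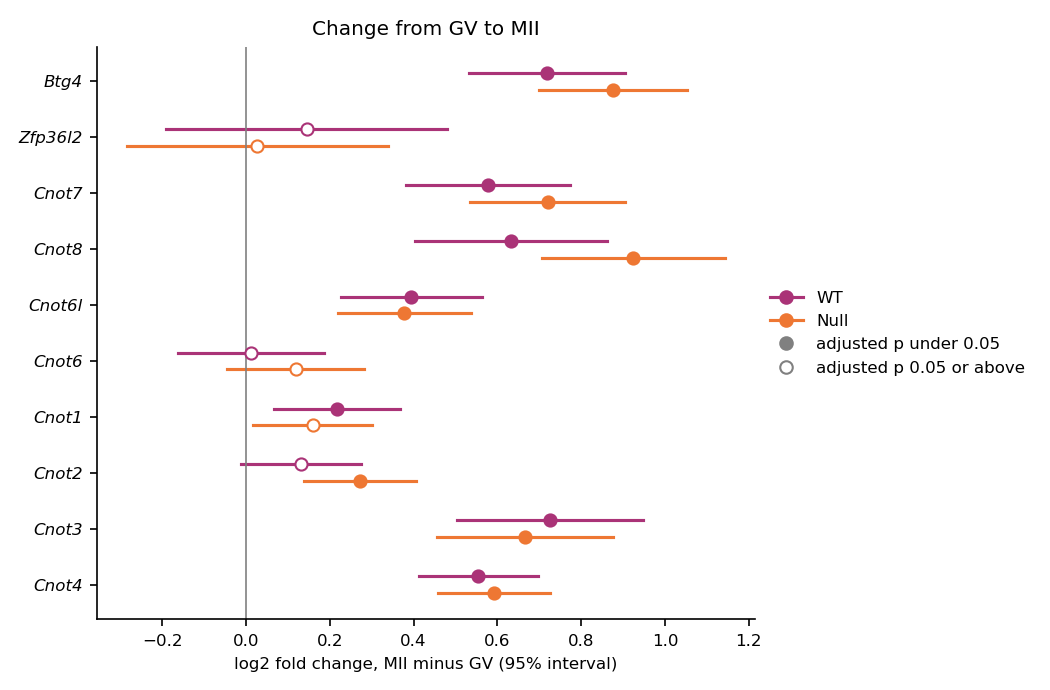
Log2 fold change from GV oocytes to MII eggs (horizontal axis) of the 10 genes in WT and in Null pools, with 95% intervals from the edgeR fit; filled points passed an adjusted p of 0.05. Btg4, Cnot3, Cnot4, Cnot6l, Cnot7 and Cnot8 passed in both genotypes, and Cnot6 and Zfp36l2 in neither.

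Across the genotypes 6 genes were higher in both, Cnot1 in WT alone, Cnot2 in Null alone and 2 in neither. Of all tested genes 16.9% were higher in both, 3.06% in WT alone, 5.25% in Null alone and 74.8% in neither. None of the 10 was called in the test of the difference between the genotypes' maturation changes, in which 0.00496% of all genes were called. An unadjusted p under 0.05 was found there for 0 of the 10 and for 681 of all 20143 genes. DESeq2 also called 0 of the 10. A test against a minimum of 1.5-fold left 0 of the 10 genes in WT, where 193 of all genes passed as higher and 2514 as lower. It left Btg4 and Cnot8 in Null, where 205 passed as higher and 3025 as lower. Scaling by library totals moved the median of all genes by -0.20 in WT and -0.23 in Null, and 6 of the 10 then passed in each genotype, all higher, among 1831 genes called higher in WT and 1985 in Null. On that scale Cnot2, Cnot6 and Zfp36l2 had negative log2 values in WT, and Cnot1, Cnot6 and Zfp36l2 in Null, none of them called. With upper-quartile scaling 8 of the 10 passed in each genotype, Cnot1 and Cnot2 in both. Of all 20143 genes, 9100 then passed in WT (4826 higher) and 10207 in Null (5188 higher). That scaling moved the median of all genes by 0.06 in WT and 0.07 in Null. With RLE scaling 7 of the 10 passed in WT and 8 in Null, with Cnot1 in both. Of all genes 8463 then passed in WT (3794 higher) and 9919 in Null (4622 higher). The summed level of the 19 cumulus markers was lower in MII than in GV libraries of WT, where the genes called among the 10 were higher. The sum of all 22 markers went the other way, from 282 to 311 CPM in GV WT and from 351 to 364 CPM in MII WT libraries. The part of cumulus RNA in the result was not tested. Without GV Null replicates 2 and 3, where the sum was highest, Btg4, Cnot3, Cnot4, Cnot7 and Cnot8 still passed in Null.

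Between genotypes no difference was detected. In GV oocytes 0 of the 10 genes were called, where 0.0546% of all genes were called. An unadjusted p under 0.05 was found for 0 of the 10 and for 1342 of all 20143 genes. In MII eggs the counts of the 10 were the same, 0 called and 0 at an unadjusted p under 0.05. Of all genes 0.0546% were again called, and 1280 of 20143 had an unadjusted p under 0.05. DESeq2 likewise called 0 of the 10 at either stage. Libraries of Null and WT did not overlap for 0 of the 10 genes in GV oocytes, against 12.8% of all genes, and for 1 of the 10 in MII eggs, against 6.07%.

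Btg4 in Null was 0.959 times its WT level in GV oocytes (95% interval 0.843 to 1.09, edgeR adjusted p = 0.935) and 1.07 times in MII eggs (0.948 to 1.21, adjusted p = 0.908). Differences within these bounds are not excluded. The bounds are not adjusted over genes and do not give the smallest difference that could be detected. Cnot7 was 0.903 times its WT level in GV oocytes (0.789 to 1.03, adjusted p = 0.830) and 0.997 times in MII eggs (0.878 to 1.13, adjusted p = 0.994). Cnot6l was 0.958 times its WT level in GV oocytes (0.853 to 1.08, adjusted p = 0.921) and 0.947 times in MII eggs (0.849 to 1.06, adjusted p = 0.923). These are the adaptor and the catalytic subunits known from maternal mRNA decay. Cnot1 was the gene whose MII libraries did not overlap, with Null at 547 to 607 CPM below WT at 617 to 653 CPM. Its Null level was 0.929 times that of WT (0.843 to 1.02, log2 -0.11, SE 0.07, edgeR adjusted p = 0.871), which did not pass. Over the 10 genes the lowest bound was that of Cnot8 in GV oocytes (0.742) and the highest that of Zfp36l2 in GV oocytes (1.49). In MII eggs the bounds ran from 0.818 for Cnot3 to 1.36 for Zfp36l2.

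**Figure D3:**
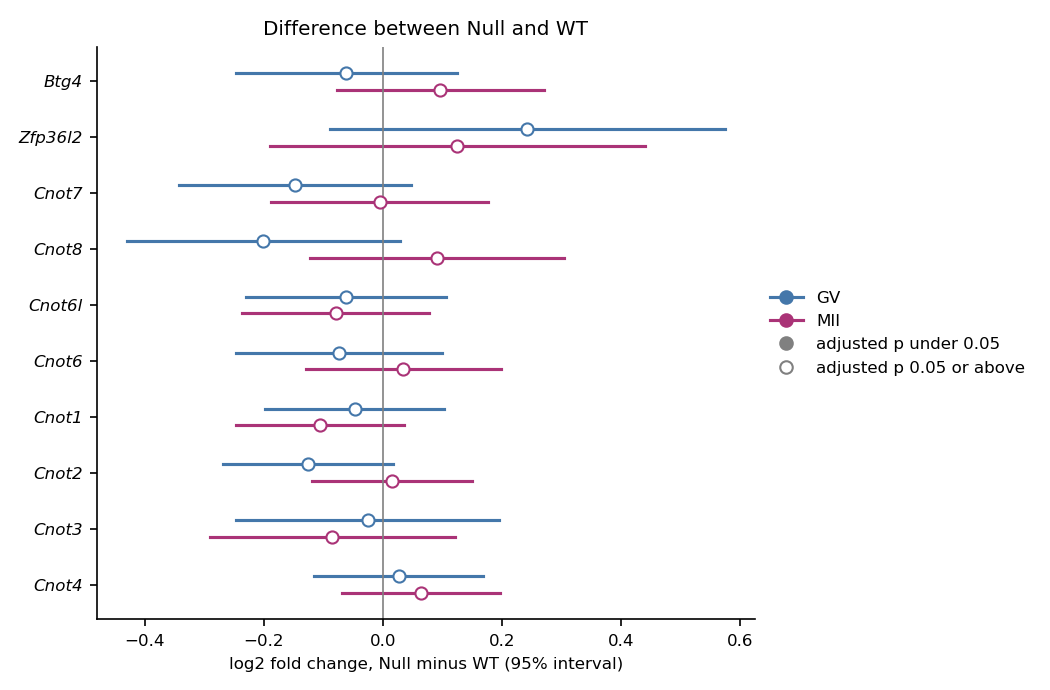
Log2 fold change between Null and WT (horizontal axis) of the 10 genes in GV oocytes and MII eggs, with 95% intervals from the edgeR fit. All 20 intervals include 0, and no gene passed an adjusted p of 0.05 (open points).

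The Null GV libraries were less alike than the others. The coefficient of variation of the 10 genes had a median of 10.8% in GV Null, against 3.88% in GV WT, 3.81% in MII WT and 4.67% in MII Null. In 7 of the 10 genes (Btg4, Cnot1, Cnot2, Cnot6, Cnot6l, Cnot7 and Cnot8) GV Null replicates 2 and 3 were both below all 3 GV WT libraries, a position held by 19.8% of all tested genes. In 1, Zfp36l2, both were above, as for 20.7% of tested genes. Replicate 1 was above all GV WT libraries in 6 of the 10, as in 29.4% of tested genes, and below them in 1, Cnot3, as in 26.8%. Replicates 2 and 3 are the libraries with 569 and 177 CPM of the 19 cumulus markers, and the part of these cells' RNA in the lower values was not tested. These positions were counted after the values were seen.

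Among the genes lower in GV Null replicates 2 and 3, Cnot8 was furthest from its GV WT mean. GV Null replicates 2 and 3 held 75.4% and 76.7% of its GV WT mean, and replicate 1 held 109%. Cnot7 held 81.9%, 82.3% and 107% in the same order. The Cnot8 difference between Null and WT GV oocytes was -0.20 on the log2 scale (SE 0.11, edgeR adjusted p = 0.794). Without GV Null replicate 1 it was -0.40 and passed (edgeR adjusted p = 0.0264), and without replicates 2 and 3 it was 0.12. The Cnot8 call therefore rests on which Null oocyte libraries are used. The difference between the stages' Null effects on Cnot8 was 0.29 on the log2 scale (SE 0.15, edgeR adjusted p = 0.999).

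**Figure D4:**
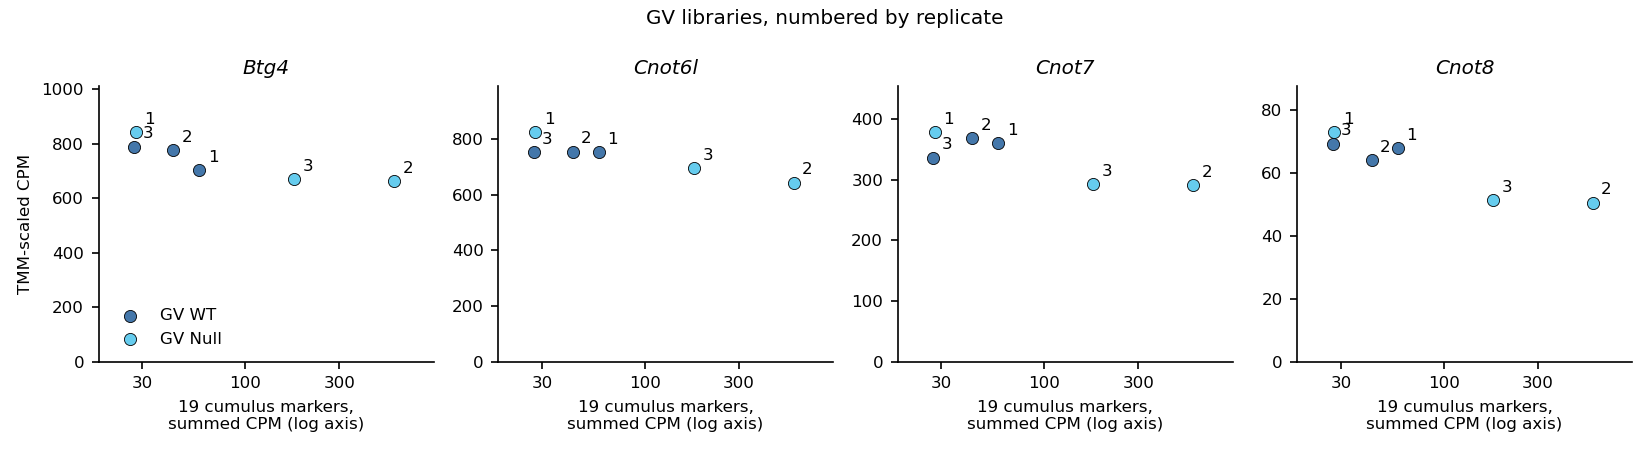
TMM-scaled CPM of Btg4, Cnot6l, Cnot7 and Cnot8 (vertical axes, from 0) in the 6 GV libraries against the summed CPM of 19 cumulus and granulosa cell markers (horizontal log axis); numbers are replicates. GV Null replicates 2 and 3, at 569 and 177 CPM of markers, are the lowest in each panel, and GV Null replicate 1, at 27.8 CPM, is the highest.

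Genes with the pattern most like that of a member were ranked over the 13 libraries by the root mean square difference of log2(CPM + 1). Each gene was centred on its mean over groups. The ranking covered 5544 tested genes of at least 20 CPM. Genes without a symbol, or with a Gm-number, Rik, pseudogene (-ps) or mitochondrial (mt-) name, were left out. Nearest to Btg4 were Mettl9 (0.0738), Ryk (0.0743), Ric1 (0.0811) and Cnot8 (0.0812). The 10 genes were placed in this ranking whatever their level, since Zfp36l2 lies under 20 CPM. Cnot8 was at rank 4, with Cnot7 at rank 80, Cnot4 at 166 and Cnot3 at 496. Further away were Cnot6l at 1218, Cnot2 at 2575, Cnot1 at 2885, Cnot6 at 3465 and Zfp36l2 at 3939. Nearest to Cnot7 were Ipo8 (0.0579), Usp28 (0.0595), Plk4 (0.0597) and Mapre1 (0.0599). Nearest to Zfp36l2 were Zfp930 (0.117), Arl14epl (0.131), Ccne2 (0.134) and Hsd17b7 (0.140). The libraries share depth and composition effects, and these distances are a description.

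The other genes of deadenylation gave mixed directions in WT maturation. Their counts stand beside 19.9% of all tested genes called higher and 22.8% lower in WT, and 22.1% and 26.9% in Null. Of the other CCR4-NOT subunits, 0 of 4 rose and 2 fell. Cnot10 and Cnot11, which bind the N-terminal part of CNOT1, fell by 0.56 (SE 0.15, edgeR adjusted p = 0.00465) and by 0.25 (SE 0.10, adjusted p = 0.0496) on the log2 scale. Cnot9, a subunit that docks adaptors, was at 0.21 in WT (adjusted p = 0.0682) and rose by 0.43 in Null (adjusted p = 0.000348). Tnks1bp1 was at 0.06 (adjusted p = 0.665). In Null 1 of the 4 rose and 2 fell. The median log2 value of the 4 was -0.09 in WT, against 0.01 over all tested genes.

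Of 7 tested adaptors of the BTG/TOB and TTP families (Zfp36l3 was not tested), 3 rose and 1 fell in WT. Btg1, a BTG family member, rose 1.94-fold from 11.2 ± 1.01 CPM (n = 3) to 21.8 ± 1.98 CPM (n = 3; edgeR adjusted p = 4.66e-06). Tob2 rose by 0.23 and Zfp36, the founding TTP gene, by 0.40 on the log2 scale, while Btg2 fell by 0.32. In Null 3 rose and 1, Zfp36l1, fell. Zfp36l1 was at 2.12 ± 2.45 CPM in GV Null (n = 3), where the cumulus markers were also uneven between libraries, and their part was not tested.

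Of 18 tested proteins that recruit CCR4-NOT or work with it on mRNA (Nanos3 was not tested), 9 rose and 3 fell in WT. Cpeb1, which holds mRNA in a short-tailed dormant state in oocytes, fell from 854 ± 26.6 CPM (n = 3) to 268 ± 27.5 CPM (n = 3), by 1.67 on the log2 scale (SE 0.11, edgeR adjusted p = 3.03e-09). Khsrp, which binds AU-rich elements, rose 2.17-fold (SE 0.09 on the log2 scale, adjusted p = 2.23e-08). Dazl, a germ-cell translational regulator, rose 1.35-fold and Tnrc6c, a microRNA silencing factor, 1.49-fold. The other genes that fell were Nanos2 and Nanos1, by 0.68 and 0.32. In Null 8 rose and 4 fell. The median log2 value of the 18 was 0.20 in WT.

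Of 9 other genes listed as deadenylases, their partners or relatives, 5 rose and 3 fell in both genotypes. The list goes by family and complex, and activity on poly(A) tails was not assessed. Pan2 and Pan3, which together form the other cytoplasmic deadenylase complex, rose 1.41-fold and 1.34-fold in WT (edgeR adjusted p = 0.000226 and 0.000102). Noct rose 1.47-fold, Angel2 1.45-fold and Angel1 by 0.42 on the log2 scale. Parn fell by 0.37, Pnldc1 by 0.63 and Toe1 by 0.92 on that scale. The median log2 value of the 9 was 0.42 in WT, near that of the 10 genes (0.47). Of 14 tested poly(A) and tail-modifying factors (Papolb was not tested), 6 rose and 2 fell in WT. Tent4a, a noncanonical poly(A) polymerase, rose 1.39-fold, and the poly(A) polymerases Papolg and Papola rose 1.25-fold and 1.22-fold. The 2 that fell were the poly(A)-binding protein genes Pabpn1l, by 0.67, and Pabpc1, by 1.05. In Null 7 rose and 3 fell, Tut4 being the other, and Pabpc1 was at 45.0 ± 13.7 CPM in GV Null (n = 3) against 31.1 ± 2.64 in GV WT (n = 3). No gene of these 5 lists was called between Null and WT at either stage.

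**Figure D5:**
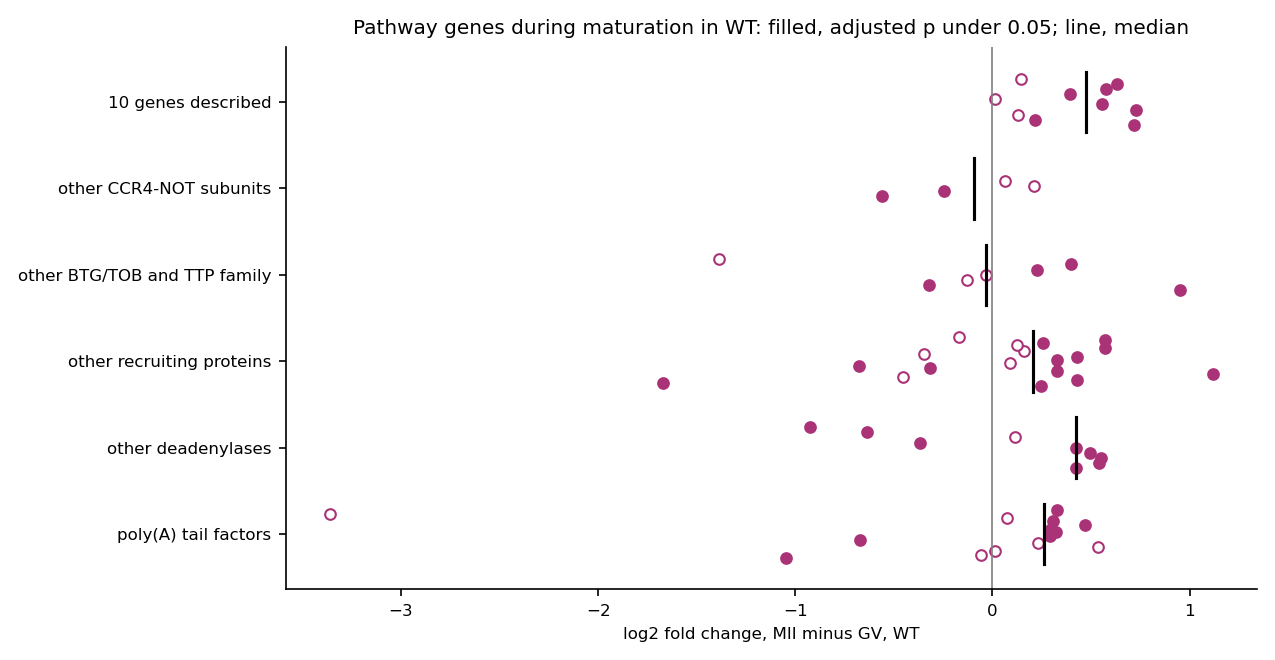
Log2 fold change from GV to MII in WT (horizontal axis) of the 10 genes and of 5 further lists; each point is 1 tested gene, filled where the edgeR adjusted p was under 0.05, and the black line is the list's median. With TMM scaling the 10 genes lie between 0.01 and 0.73, and every other list holds genes on both sides of 0. The lowest of the 10, Cnot6, was at -0.0056 with RLE scaling and at -0.19 with library totals.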

How the data were processed

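RNA-seq counts of 13 pools of mouse oocytes or eggs were used. The authors deposited raw counts per gene of Ensembl release 93, not normalized. Per the submitters' processing notes, STAR 2.5.3a, bedtools 2.26.0 and the builds mm10 and GRCm38.p6 were used. How reads were counted (tool, strand, reads with several matches) is not given in the sources used here, so paralogs and overlapping or antisense genes may share counts. Per the labels, libraries were made with a NuGEN amplification kit and read as 65 bp single ends, and 0.2 pg of Renilla RNA was added to each. No line of the table is a spike-in, so scaling by it was not done here. Symbols were found for 54079 gene IDs and not for 153. Coordinates and promoter windows are from RefSeq (GRCm38.p6).

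All libraries were fitted in 1 model of 4 groups with edgeR 4.0.16 (R 4.3.3), using TMM scaling, filterByExpr by group (20143 genes kept), glmQLFit (robust) and two-sided glmQLFTest, for 5 comparisons. P-values were adjusted by Benjamini-Hochberg within a comparison, with a threshold of 0.05. A count of 3 corresponds to 0.0671 to 0.105 TMM-scaled CPM, which covers counting error only. Replicate libraries differed beyond counting noise (chi-square per degree of freedom from 5.03 to 34.3), so no library was counted as a second deposit of another. This does not show that the pools are independent. By this measure MII Null replicate 1 was also unlike its group, at 28.4, 25.6 and 27.5 against replicates 2, 3 and 4. Replicate 4 was at 23.3 and 18.5 against replicates 2 and 3, which were at 10.4 against each other. Paralog ratios were compared by exact permutation over all arrangements (Python 3.11.15, numpy 2.4.6). DESeq2 1.42.0, other scalings and filters, and left-out libraries were the alternatives. All 10 genes are named; of each further list, up to 4 genes with the smallest p in WT maturation are named, and others to complete a count of 5 or fewer, chosen after their values were seen. The rule for the 10 genes uses no measured value, but it and the lists were set with earlier results of these data known.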

Additional observations from a re-analysis of the deposited data

How the results depend on the processing

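For single genes of the 10, 1207 of 1240 values under alternative settings kept their side of the threshold, 27 lost a call, 6 gained one and none changed sign as a called value. Signs of uncalled values changed 78 times. Over all genes, Null against WT gave 11 calls in GV oocytes, and 27 with DESeq2, 3 against a minimum of 1.5-fold, 644 with no filter on low counts, 1 without GV Null replicates 2 and 3, 4 without these and MII Null replicate 4 (chosen after seeing the data), and 6 to 139 leaving out 1 library. None of the 10 genes was among them, except 1 without GV Null replicate 1 (range 0 to 1). In MII eggs the 11 calls became 41, 2 and 290 under DESeq2, 1.5-fold and no filter, and 4 to 12 leaving out 1 library. Maturation gave 8609 calls in WT (2707 at 1.5-fold, with 0 in place of 7 of the 10 genes) and 9867 in Null (3230 at 1.5-fold with 2 in place of 7; 6569 with a filter of 5 CPM in 3 libraries; 5672 without GV Null replicates 2 and 3). Library totals lowered the share of calls that were higher from 46.6% to 23.7% in WT and from 45.2% to 21.4% in Null. The difference between stages gave 1 call, and 2 with DESeq2, 157 with no filter, 0 under 1.5-fold, RLE scaling, the fit that was not robust and without GV Null replicates 2 and 3 with or without MII Null replicate 4, and 0 to 1 leaving out 1 library. The Cnot7 to Cnot8 ratio, -0.14 between stages, was -0.0882 without GV Null replicates 2 and 3 (exact permutation p = 0.26), -0.11 also without MII Null replicate 4 (p = 0.188), and -0.17 to -0.11 leaving out 1 library. For Cnot6l to Cnot6 the Null against WT values ran from -0.0851 (without GV Null replicate 1) to -0.0296 leaving out 1 library, and reached 0.0219 without GV Null replicates 2 and 3 and MII Null replicate 4. The causes were not tested.

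Same-numbered replicates did not deviate together: 18 correlations ran from -0.148 to 0.121, and 1 of 12 libraries correlated best with its own number. A fit with the replicate number as a block gave 11 calls in GV oocytes, 12 in MII eggs, 8752 and 9872 for maturation in WT and Null, and 0 for the difference between stages. With 3 or 4 libraries a group, and no spike-in count, changes within the intervals given are not excluded. The intervals are not adjusted over genes and do not give the smallest change that could be detected.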
